A study of Chrysanthemum x morifolium with 12 samples.

Results

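Mature leaves of the green-flowered chrysanthemum cultivar Feeling Green (FG) were compared with ray floret petals of the same cultivar at stage 2, when the outermost ray florets begin to open. The comparison used 6 of the 12 arrays of the series, 3 of FG leaves and 3 of FG petals, which were chosen by the tissue and cultivar in the sample labels. The other arrays held stage 2 petals of 2 bud sports of FG, the white-flowered Feeling White (FW) and the darker green Feeling Green Dark (FGD), with 3 arrays each. All plants were grown in a greenhouse under natural daylight, and the methods call the arrays of a group biological replicates, although the labels do not say that they came from separate plants. If they did not, the p values measure only the spread between these arrays. Leaves were taken from FG alone, and mature leaves were set against petals that were still opening, so that organ and developmental stage cannot be told apart. A leaf and a petal also differ in their cells, and more cells of a type and more RNA per cell cannot be told apart in such samples.

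Chlorophyll (Chl) is made from glutamate through aminolevulinate, porphyrins, and Mg-porphyrins. The last steps reduce protochlorophyllide and attach the phytol tail. Chl *a* and Chl *b* are interconverted in the Chl cycle, and Chl is broken down by removal of Mg, removal of phytol, and opening of the ring. Mature leaves of most plants keep Chl in mesophyll chloroplasts, whereas petals usually lose it as they open. FG petals are unusual in remaining green, so that this comparison is between 2 green organs. They are not equally green, since the study measured far more Chl in FG leaves than in FG petals of a later stage, with most ray florets open.

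Probes for enzymes of Chl synthesis and breakdown (*CRD*, *CHLH*, *SGR*) and for transcription factors (*COL16-like*, the RADIALIS-like *MYB3* and *MYB4*, *MIF2*, and *HB40*) differed by over 5-fold between leaves and petals. The primers designed for these 8 genes in the study's RT-qPCR are shown, because the results turn on these genes. They are not the array probes. Each is written from the 5′ end, and the 16 primers are 21 to 26 bases long.
CRD forward: gtcatcattgagacaaaccgcact
CRD reverse: aagttcttcaccaacgggatgtca
CHLH forward: accaaatgcttatattgccgacac
CHLH reverse: agcctcttctcaatttcacgaaca
SGR forward: ctcttcatgttcattgtcacattag
SGR reverse: agttctttggtgaaaatgaaga
COL16-like forward: gctgacgatgcttttctatgccaa
COL16-like reverse: cgaaactgcgcctgaaccaaa
MYB3 forward: tcaagctcctcatggacacctc
MYB3 reverse: agttttaccaccaactgcccta
MYB4 forward: gggatatcatgcaaattgaatccgac
MYB4 reverse: ttcagaagcctttgttcatttgcg
MIF2 forward: ggtgagtgtcaaaggaaccatgc
MIF2 reverse: ccaccacccttctatggaagt
HB40 forward: cactgtccttgataaatgccgtct
HB40 reverse: tgatattccatccgatcgctccac

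Each array carried 176026 probes, 1 for each contig. Expression levels are given as the log2 of the background-corrected spot intensity minus the log2 of the array's 75th percentile. A level of 0 thus means a signal at that percentile. Levels of different probes are not compared with each other. Differences are leaf minus petal on this log2 scale. The p values are those of the limma model, adjusted by the method of Benjamini and Hochberg. The adjustment ran over the 70270 probes with a mean signal of at least 100 over the 12 arrays or, for named probes under that cutoff, over all 176026 probes. A probe was called undetected in a tissue when none of its 3 arrays gave a signal well above background, and its fold change is then a lower bound. The bound is set by the dimmest signal that was well above background on each of those arrays, or by the probe's own signal where that was higher.

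Before scaling, the leaf arrays were dimmer. Their 75th percentile was 188 to 209.5, against 339 to 346 on the FG petal arrays, and their summed signal was 1.75e+08 to 1.83e+08, against 2.47e+08 to 2.50e+08 on the FG petal arrays. Probes that gave a signal well above background made up 63.15% to 65.22% of the array in leaves and 67.97% to 68.41% in FG petals. The 1000 brightest probes held 50.9% to 52.9% of the leaf signal and 46.6% to 47.6% of the FG petal signal. The 10 kinds of positive control spots printed on every array had a similar median brightness in both tissues. The log2 median was 10.16 to 10.22 on leaf arrays and 10.16 to 10.19 on FG petal arrays. Single kinds differed in either direction. A dim kind was at 2.54 to 2.7 on leaf arrays and 1.65 to 2.21 on FG petal arrays. The brightest kind was at 17.7 to 17.79 on leaf arrays and 17.82 to 17.88 on FG petal arrays. Scaling by these control spots, an alternative chosen after seeing the data, subtracts 0.83 from every difference. It takes the median difference of all tested probes to −0.94, against −0.11 with the 75th percentile. The sources used here do not say that control RNA was added in equal amounts. Every direction below is therefore relative to the 75th percentile, and those that turn under control spot scaling are named.

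**Figure D1:**
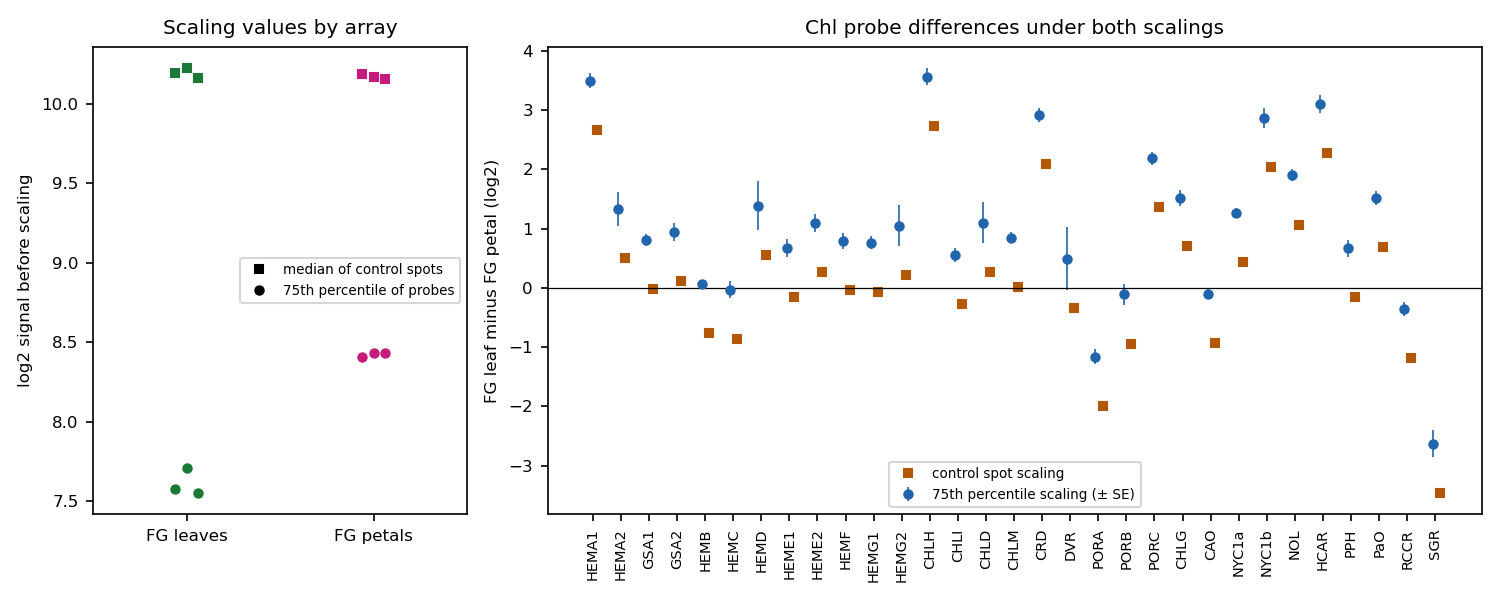
Left, log2 signal of each array before scaling, as the median of the positive control spots (squares) and the 75th percentile of the probes (circles); right, leaf minus petal differences of the 31 Chl metabolic probes under 75th percentile scaling (circles, with SE) and under control spot scaling (squares). The control spot medians lie at 10.16 to 10.22 in both tissues, the percentile is lower in leaves, and each difference drops by 0.83 under control spot scaling.

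The arrays lay on 3 slides. FG leaves shared theirs with FGD petal replicate 3, and FG petals shared theirs with FW petal replicate 1, so that no slide held both tissues of FG. A fit with a slide term (the slide-block fit) therefore estimates the slides from few petal arrays, among them those single ones. Slide and tissue of FG thus cannot be told apart. FGD petal replicate 3, on the slide of the leaves, had a 75th percentile of 347 and a control spot median of 10.21.

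Leaves and petals differed over most of the array. Of the 70270 tested probes, 4789 (6.82%) were over 5-fold higher in leaves and 4959 (7.06%) over 5-fold lower, at an adjusted p under 0.05. At that p and any fold, 23771 (33.8%) were higher and 30286 (43.1%) lower. The 3 leaf arrays lay above the 3 petal arrays for 35.3% of the tested probes and below them for 44.9%. In the fit of all 176026 probes, 66381 (37.7%) were higher and 44169 (25.1%) lower. The median size of the difference was 0.69, against a median SD of 0.14 between leaf arrays and 0.10 between petal arrays. As a description, correlations over the tested probes were 0.657 to 0.686 between a leaf and a petal array, 0.982 to 0.992 among leaf arrays, and 0.982 to 0.991 among petal arrays. Under control spot scaling, the probes over 5-fold apart were split into 2747 higher and 8432 lower.

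The extremes were wide in both directions. Fitted differences over 100-fold were found for 429 probes higher in leaves and 620 lower, and for 377 and 406 of them the measured fold change or the bound itself was over 100. Over the whole array, 2979 probes were well above background on all 3 leaf arrays and on no FG petal array, and 6926 were so on all 3 FG petal arrays and on no leaf array. Both tissues gave signals on all 6 arrays for 100062 probes, and neither gave one for 42116.

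Among probes measured on all 6 arrays, 2 with the largest difference in each direction were singled out. They were taken from probes called over 5-fold different whose leaf and petal arrays did not overlap. Their differences and p values are those used in the choice and are no separate evidence. The files do not pair these 4 probes with gene names. PD0028_036006 was at 7.63, 6.90, and 7.54 in leaves, against −3.47, −3.70, and −3.66 in FG petals. It was 2000-fold higher in leaves (log2 difference 10.96, SE 0.22, adjusted p = 3.34e-11). PD0028_086558 was at 8.42 ± 0.18 in leaves and −2.24 ± 0.33 in FG petals (SD, n = 3 arrays each) and was 1630-fold higher in leaves (log2 difference 10.67, or 9.77 in the slide-block fit). On the petal side, PD0028_168248 was at −2.87 ± 0.66 in leaves and 9.49 ± 0.33 in FG petals, a 5240-fold lower level. PD0028_116830 was at −2.59 ± 0.65 in leaves and 9.07 ± 0.13 in FG petals and was 3240-fold lower (log2 difference −11.66, SE 0.25, adjusted p = 4.5e-11). The petals of both bud sports were also bright for this pair, with PD0028_168248 at 9.86 ± 0.11 in FGD petals and 9.55 ± 0.38 in FW petals and PD0028_116830 at 6.85 ± 0.11 in FGD petals and 9.35 ± 0.06 in FW petals.

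**Figure D2:**
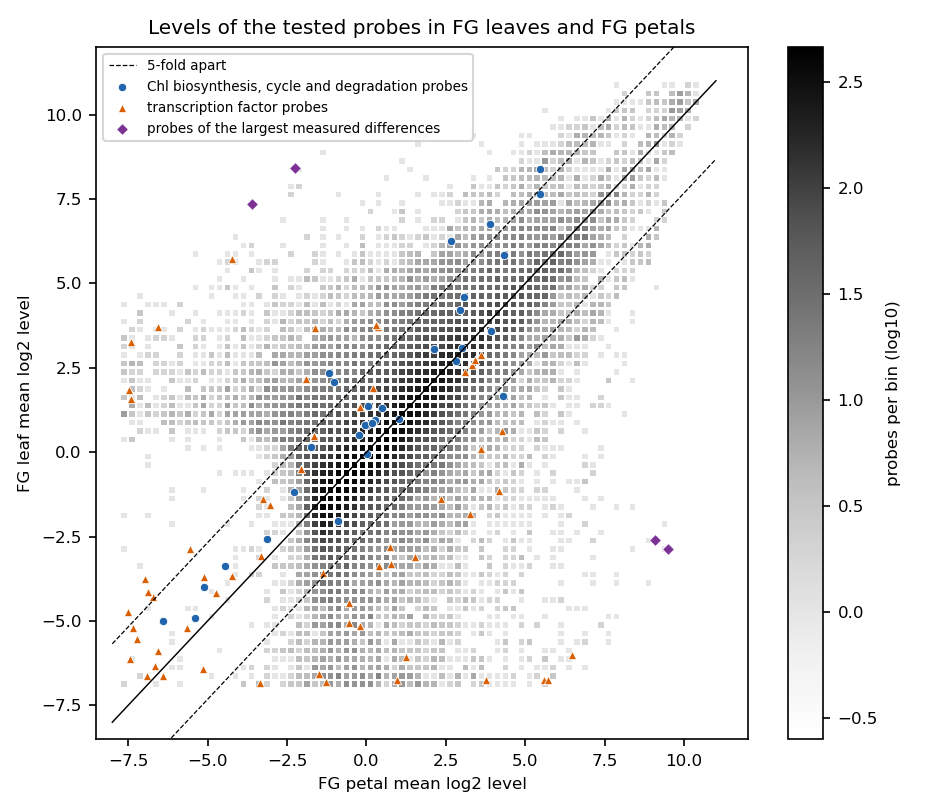
Mean log2 level in FG leaves (y axis) against FG petals (x axis) for the 70270 tested probes, binned in steps of 0.25 with darker squares for more probes; the solid line marks equal levels and the dashed lines a 5-fold gap. Colored symbols are the named probes, including those under the signal cutoff. The transcription factor probes reach far from the diagonal on both sides, to differences of 10.67 and −12.49, whereas the Chl metabolic probes lie within −2.63 and 3.57 of it.

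Of the 22 probes of Chl biosynthesis genes, 16 were higher in leaves, 1 was lower, 3 did not pass the test, and 2 (*HEMD* and *DVR*) gave no usable fold change. In the tested set, 12 of the 16 measured probes were higher and 1 was lower, against 33.8% and 43.1% of all tested probes. The other 4 higher probes were under the signal cutoff and were tested in the fit of all probes. The 3 leaf arrays lay above the 3 petal arrays for 18 of the 22 and below them for 1. The shares were 35.3% and 44.9% of all tested probes, although some of the 22 were under the signal cutoff. Among the 18 were *HEMD*, undetected in both tissues, and *HEMB*, which did not pass the test. The median difference of the 22 was 0.90, against −0.11 over all tested probes and 0.27 over all 176026 probes. The medians and counts of the 22 here and below include probes under the signal cutoff, whereas those of the tested probes do not. Under control spot scaling, 5 probes (*HEMA1*, *CHLH*, *CRD*, *PORC*, and *CHLG*) were higher and 4 (*HEMB*, *HEMC*, *PORA*, and *PORB*) lower, with a median difference of 0.07. Of the 70270 tested probes, 10752 were higher and 50744 lower at any fold under that scaling, with a median of −0.94. In the slide-block fit, those same 5 and *GSA1* and *CHLM*, 7 in all, stayed higher and *PORA* stayed lower. That fit called 17007 of the tested probes higher and 21220 lower.

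The first committed step is glutamyl-tRNA reductase, encoded by *HEMA*, whose product is turned into aminolevulinate by glutamate-1-semialdehyde aminotransferase, encoded by *GSA*. *HEMA1* (PD0028_007255) was at 2.58, 2.18, and 2.23 in leaves, against −1.03, −1.17, and −1.33 in FG petals. The gap of 3.50 (SE 0.13, adjusted p = 1.9e-09) is an 11.3-fold higher level in leaves. The second *HEMA* probe, for which the study lists the same closest Arabidopsis gene, moved less and spread more within each tissue. *HEMA2* (PD0028_048590) was at 1.51, 0.81, and 1.82 in leaves, against 0.56, −0.12, and −0.27 in FG petals. It was 2.51-fold higher (adjusted p = 0.00153), a call lost under control spot scaling (adjusted p = 0.132) and in the slide-block fit (adjusted p = 0.0589). The *GSA* probes moved together and modestly. *GSA1* (PD0028_006202) was at 1.45, 1.27, and 1.19 in leaves, against 0.51, 0.53, and 0.45 in FG petals. *GSA2* (PD0028_002590) was at 3.30, 2.91, and 2.99 in leaves, against 2.14, 2.16, and 2.05 in FG petals. They were 1.75-fold and 1.93-fold higher, with adjusted p values of 2.04e-05 and 0.000199. Their differences under control spot scaling were −0.02 and 0.12.

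In the middle of the pathway, which builds and oxidizes the porphyrin ring, no probe differed by more than 2.14-fold. *HEMB* encodes aminolevulinate dehydratase and *HEMC* porphobilinogen deaminase. *HEMB* was at 3.07 ± 0.06 in leaves and 3.00 ± 0.01 in FG petals (SD, n = 3 arrays each), and its difference of 0.07 did not pass the test (adjusted p = 0.376). That of *HEMC* was −0.03 (adjusted p = 0.834). The probe for *HEMD*, uroporphyrinogen III synthase, was undetected in both tissues. Uroporphyrinogen decarboxylase (*HEME*) and protoporphyrinogen oxidase (*HEMG*) have 2 probes each. *HEME1* (PD0028_017323) was at 1.11, 0.67, and 1.06 in leaves, against 0.32, 0.45, and 0.08 in FG petals. *HEME2* (PD0028_036810) was at −0.99, −1.40, and −1.16 in leaves, against −2.53, −2.12, and −2.20 in FG petals. The *HEME* probes were 1.59-fold and 2.14-fold higher in leaves. *HEMG1* (PD0028_002258) was at 0.69, 0.32, and 0.56 in leaves, against −0.18, −0.16, and −0.36 in FG petals. *HEMG2* (PD0028_002071) was at −2.35, −3.92, and −3.88 in leaves, against −4.30, −4.54, and −4.46 in FG petals. The *HEMG* probes were 1.69-fold and 2.07-fold higher. Leaf replicate 1 stood far above the other leaf arrays for *HEMG2*. *HEMG2* lost its call without FG petal replicate 2 (adjusted p = 0.0665) or 3 (adjusted p = 0.0598) and, as did the probes for *CHLI* and *CHLD*, with a signal floor of 100 (adjusted p = 0.218). *HEMF*, coproporphyrinogen oxidase, was 1.72-fold higher (adjusted p = 0.000298). None of these 5 probes passed in the slide-block fit, and under control spot scaling the differences of *HEME1*, *HEMF*, and *HEMG1* turned to −0.16, −0.04, and −0.07, none of which passed the test.

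Mg chelatase inserts Mg into protoporphyrin and has 3 subunits. Its large subunit, *CHLH*, had the largest difference of all Chl probes. *CHLH* (PD0028_022231) was at 6.44, 6.07, and 6.22 in leaves, against 2.62, 2.91, and 2.48 in FG petals. It was 11.9-fold higher in leaves (log2 difference 3.57, SE 0.14, adjusted p = 3.43e-09). The probes listed for the other subunits were dim. *CHLI* was 1.48-fold and *CHLD* 2.15-fold higher, and the difference of *CHLD* was 0.11 in the slide-block fit. The closest Arabidopsis gene listed for the *CHLI* probe is not the one usually given that name. The call of *CHLD* was lost without leaf replicate 1 (adjusted p = 0.0622), leaf replicate 2 (adjusted p = 0.0745), or petal replicate 2 (adjusted p = 0.0655). *CHLI* turned to −0.27 under control spot scaling (adjusted p = 0.12). *CHLM*, the next enzyme, a methyltransferase, was 1.81-fold higher (adjusted p = 7.62e-06) and stood at 0.02 under control spot scaling.

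*CRD* encodes the cyclase that closes the isocyclic ring of Chl. *CRD* (PD0028_062998) was at 8.50, 8.28, and 8.38 in leaves, against 5.42, 5.61, and 5.37 in FG petals. It was 7.55-fold higher in leaves (log2 difference 2.92, SE 0.12, adjusted p = 5.26e-09), and its arrays spread by little within either tissue. *DVR*, divinyl reductase, was undetected in leaves and detected on 1 petal array.

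Protochlorophyllide oxidoreductase (POR) reduces protochlorophyllide in the light, and its 3 probes went 3 ways. *PORC* (PD0028_042108) was at 7.75, 7.59, and 7.62 in leaves, against 5.54, 5.56, and 5.30 in FG petals. *PORB* (PD0028_002436) was at 2.82, 2.48, and 2.80 in leaves, against 2.75, 3.00, and 2.69 in FG petals. *PORA* (PD0028_010915) was at −2.27, −1.76, and −2.11 in leaves, against −0.81, −0.85, and −1.01 in FG petals. Leaves were 4.56-fold higher for *PORC* (log2 difference 2.19, SE 0.11, adjusted p = 2.41e-08), overlapped with petals for *PORB* (difference −0.11, adjusted p = 0.585), and were 2.24-fold lower for *PORA* (log2 difference −1.16, SE 0.12, adjusted p = 5.93e-06). In Arabidopsis *PORA* is best known from seedlings in the dark and *PORC* from green tissue in the light. *PORB* was lower in leaves as well under control spot scaling (difference −0.94, adjusted p = 0.000285). *CHLG*, Chl synthase, which attaches the phytol tail, was 2.88-fold higher in leaves (adjusted p = 1.02e-06).

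**Figure D3:**
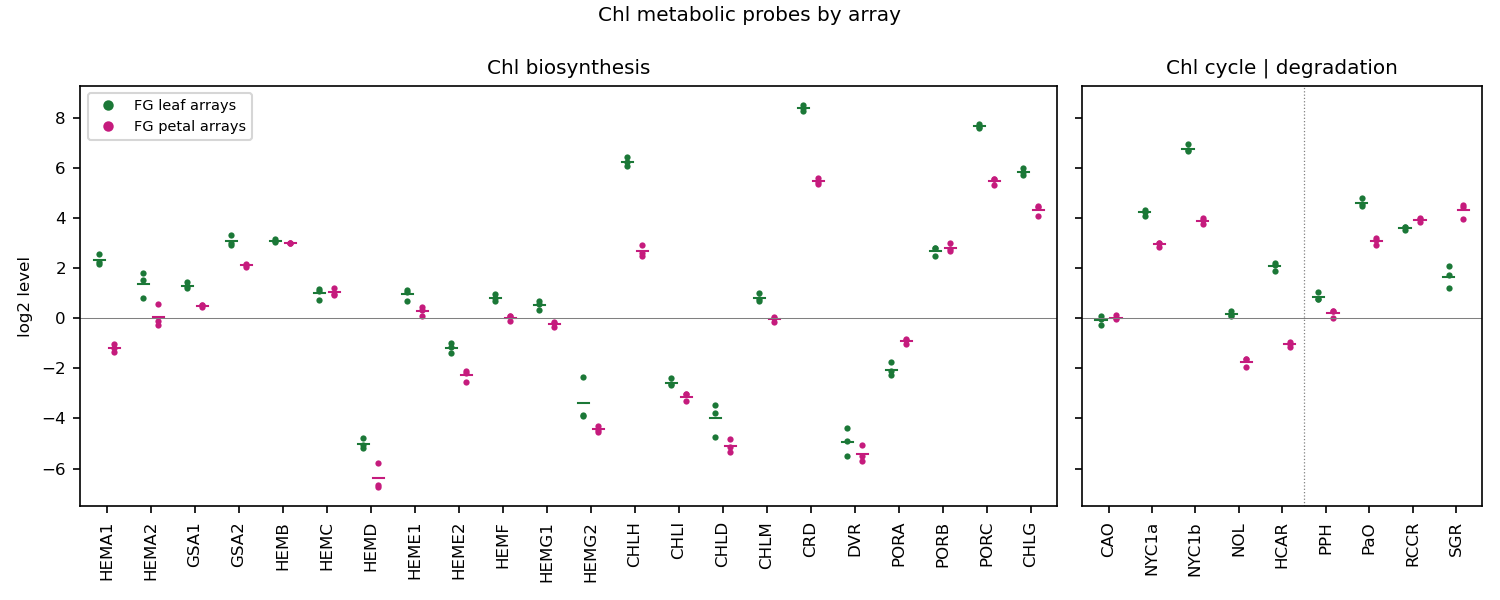
Log2 level of each Chl metabolic probe on the 3 FG leaf arrays (left of each pair) and the 3 FG petal arrays (right of each pair), with a short bar at the mean; biosynthesis genes are in pathway order on the left and the Chl cycle and degradation genes on the right. *HEMA1*, *CHLH*, *CRD*, *NYC1b*, and *HCAR* are over 5-fold higher in leaves, and *SGR* is over 5-fold lower.

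In the Chl cycle, Chl *b* reductase (*NYC1* and *NOL*) and hydroxymethyl Chl *a* reductase (*HCAR*) turn Chl *b* back to Chl *a*. All 4 of their probes were higher in leaves, and *CAO*, listed as the oxygenase that makes Chl *b*, did not pass the test (difference −0.10, adjusted p = 0.35). Of the 5 probes 4 were thus higher, against 33.8% of all tested probes. *HCAR* (PD0028_003321) was at 2.19, 1.89, and 2.13 in leaves, against −0.95, −1.02, and −1.14 in FG petals. It was 8.61-fold higher (log2 difference 3.11, SE 0.15, adjusted p = 1.77e-08). The *NYC1* probes rose to different degrees. *NYC1b* (PD0028_007614) was at 6.94, 6.69, and 6.67 in leaves, against 3.91, 3.77, and 3.99 in FG petals. *NYC1a* (PD0028_011417) was at 4.31, 4.25, and 4.09 in leaves, against 2.98, 2.84, and 3.01 in FG petals. *NYC1b* was 7.33-fold higher (adjusted p = 5.63e-08) and *NYC1a* 2.41-fold higher (adjusted p = 1.3e-07). *NOL* was 3.72-fold higher (adjusted p = 2.48e-08). These 4 stayed higher under control spot scaling and in the slide-block fit. *CAO* was lower in leaves under control spot scaling (difference −0.93, adjusted p = 2.77e-05). The closest Arabidopsis gene listed for the *CAO* probe is also not the one usually so named.

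The levels in the bud sports differed between these probes. *NYC1a* averaged 4.22 ± 0.11 in leaves and 2.94 ± 0.09 in FG petals, and it was at 2.29 ± 0.07 in FGD petals and 4.10 ± 0.08 in FW petals (SD, n = 3 arrays each). The white FW petals were thus near the leaf level for *NYC1a*, whereas *NYC1b* was at 3.37 ± 0.39 in FGD petals and 4.06 ± 0.09 in FW petals, far below its 6.77 ± 0.15 in leaves. For *HCAR*, by contrast, the petals of all cultivars were low, at −1.03 ± 0.10 in FG, −0.65 ± 0.09 in FGD petals and −1.88 ± 0.35 in FW petals. These levels of the bud sports are descriptions and were not tested against leaves.

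Of the 4 degradation probes, 2 were higher and 2 lower in leaves, against 33.8% and 43.1% of all tested probes, and the median difference was 0.16. *SGR*, STAY-GREEN, encodes the Mg-dechelatase that starts Chl breakdown. *SGR* (PD0028_001845) was at 1.21, 2.07, and 1.71 in leaves, against 4.43, 3.96, and 4.50 in FG petals. It was 6.21-fold lower in leaves (log2 difference −2.63, SE 0.23, adjusted p = 1.41e-06), and the highest leaf array lay below the lowest petal array. *PaO*, pheophorbide *a* oxygenase, which opens the ring, was 2.86-fold higher (adjusted p = 5.82e-07). *PPH*, pheophytinase, which removes phytol, was 1.59-fold higher (log2 difference 0.67, adjusted p = 0.00117), with a difference of 1.29 in the slide-block fit. *RCCR*, red Chl catabolite reductase, was at 3.58 ± 0.08 in leaves and 3.93 ± 0.08 in FG petals (difference −0.35, adjusted p = 0.0179). The call of *RCCR* was lost without leaf replicate 2 (adjusted p = 0.0571), petal replicate 1 (adjusted p = 0.0526), or petal replicate 3 (adjusted p = 0.0537). Under control spot scaling *PPH* turned to −0.16 (adjusted p = 0.411), *SGR* and *RCCR* were lower in leaves, and *PaO* stayed higher.

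As a check of the labelled tissue, the probes for *CHLH*, *CRD*, *PORA*, *PORB*, *PORC*, and *HCAR* were taken as leaf markers, although all 6 were also well above background on every array of the green FG petals. Of these, 4 were higher in leaves, *PORB* did not pass the test, and *PORA* was lower, against 33.8% higher and 43.1% lower of all tested probes. These are the differences already given above, so that they are not an independent check of the labels. No probe of the lists stands for a gene of petal identity, so that the petals could not be checked in the same way. Of the 25 Chl probes called different, 23 had their level on FGD petal replicate 3, the petal array that shared the slide of the leaves, on the same side of all 3 leaf arrays as the FG petals, and the other 2 (*HEME1* at 1.01 and *CHLD* at −4.63) lay within the leaf range. These are values of 1 array of another cultivar and were not tested. The count was not made over all tested probes, so that it has no share to be set against.

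The study listed 59 transcription factor probes for their change between FG petals and FW or FGD petals. These lists were chosen on the same FG petal arrays that enter here, so that their direction in leaves is not independent of the choice. Of the 59, 20 were higher in leaves, 26 were lower, 4 did not pass the test, and 9 gave no usable fold change. Of the 37 in the tested set, 12 were higher and 22 lower, against 33.8% and 43.1% of all tested probes. Of these 37, 9 (24.3%) were over 5-fold higher by the fitted difference and 18 (48.6%) over 5-fold lower, against 6.82% and 7.06% of all tested probes. Of all 59, 16 were higher and 26 lower under control spot scaling, and 15 and 24 in the slide-block fit. Of the 70270 tested probes, 10752 were higher and 50744 lower under control spot scaling, and 17007 and 21220 in the slide-block fit. The median difference of all 59 was 0.28. It was −0.71 with bounds in place of fitted values and without the 9 that gave no usable fold change. Its sign thus depends on whether those 9 dim probes are counted. Probes of a family share their closest Arabidopsis gene, except that the COL and ovate families each hold probes of different closest genes. Such probes can report the same transcript, so they are not independent. Of the 46 transcription factor probes called different, 35 had their level on FGD petal replicate 3 on the side of the FG petals, 7 within the leaf range, among them 3 of the 4 ERF probes, and 4 on the other side. The last 4 were PD0028_081008, PD0028_148039, PD0028_142351, and PD0028_041425, all listed by the study for a change between FG and FGD petals. FGD petal replicate 3 was among the arrays used for that choice. The position of such probes thus partly follows from the choice, and the count is no test of the slide. This count, too, has no share over all tested probes to be set against.

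RADIALIS-like genes encode small MYB proteins with a single repeat, known first from the asymmetry of *Antirrhinum* flowers. The 3 probes closest to RADIALIS-LIKE SANT/MYB 4, to which *MYB4* belongs, were bright in leaves and undetected in FG petals. PD0028_048158 was at 3.66, 3.48, and 2.63 in leaves, against −7.09, −7.58, and −7.58 in FG petals. PD0028_064158 was at 2.14, 2.15, and 1.24 in leaves, against −7.67, −7.06, and −7.73 in FG petals. PD0028_102746 was at 1.83, 1.91, and 0.98 in leaves, against −7.02, −7.60, and −7.65 in FG petals. Leaves were at least 398-, 149-, and 124-fold higher, with adjusted p values of 1.07e-09, 7.25e-09, and 2.54e-09. The fitted difference of PD0028_048158 was 10.67, or 12.03 in the slide-block fit, where those of the other 2 were 10.85 and 10.43. Leaf replicate 3 was the lowest leaf array for each of them. Petals of both bud sports gave signals between those of leaves and FG petals, with the *MYB4* probe PD0028_102746 at −3.15 ± 0.63 in FGD petals and −4.42 ± 0.34 in FW petals (SD, n = 3 arrays each).

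The 3 probes closest to RADIALIS-LIKE SANT/MYB 3 did not move together. PD0028_092972 was at 5.94, 6.04, and 5.20 in leaves, against −4.44, −2.99, and −5.22 in FG petals. PD0028_006794 was at 3.93, 4.07, and 3.09 in leaves, against −6.32, −5.69, and −7.71 in FG petals. PD0028_010170 was at −2.21, −2.96, and −4.78 in leaves, against 0.70, 0.87, and 0.76 in FG petals. The first, the *MYB3* probe of the study's RT-qPCR, was 987-fold higher in leaves (log2 difference 9.95, SE 0.55, adjusted p = 4.3e-08), and without FG petal replicate 2 the difference was 10.56. The second was at least 540-fold higher (fitted difference 10.27, adjusted p = 1.06e-08), with a fitted difference of 11.51 in the slide-block fit. The third was lower in leaves (log2 difference −4.09, SE 0.49, adjusted p = 1.9e-05), where its arrays spread widely and 1 was not above background, and without leaf replicate 3 the difference was −3.36. In FGD petals the levels of all 3 were above those in FG petals, at 2.29 ± 0.62, 0.08 ± 0.57, and 1.53 ± 0.19 (SD, n = 3 arrays), a change for which the study listed the first and second of these probes.

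CONSTANS-like (COL) proteins carry a B-box zinc finger and a CCT domain. All 3 COL probes were higher in leaves. PD0028_003905 was at 3.77, 3.79, and 3.59 in leaves, against 0.51, 0.28, and 0.25 in FG petals. PD0028_029276 was at 3.74, 3.88, and 3.67 in leaves, against 0.43, 0.16, and 0.34 in FG petals. PD0028_117926 was at 0.46, 0.57, and 0.39 in leaves, against −1.52, −1.77, and −1.68 in FG petals. The first, the *COL16-like* probe, was 10.3-fold higher (log2 difference 3.37, SE 0.18, adjusted p = 2.63e-08), the second 10.9-fold, and the third 4.38-fold (adjusted p = 0.00151). In the slide-block fit the third probe reversed (difference −0.66, adjusted p = 0.0389), and PD0028_003905 and PD0028_029276 stayed higher, with differences of 2.43 and 2.74. The 3 leaf arrays agreed closely for each probe. Down the series from leaves through the petals, *COL16-like* averaged 3.72 ± 0.11 in leaves, 2.11 ± 0.17 in FGD, 0.35 ± 0.14 in FG, and −4.15 ± 0.40 in FW (SD, n = 3 arrays each).

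Mini zinc finger (MIF) proteins have the zinc finger of zinc finger homeodomain proteins without the homeodomain. The 6 probes closest to *MIF2* were present in FG petals and undetected in leaves. PD0028_132595 was at −6.23, −5.02, and −6.75 in leaves, against 6.65, 5.97, and 6.75 in FG petals. PD0028_105609 was at −6.79, −6.70, and −6.79 in leaves, against 5.94, 5.21, and 6.05 in FG petals. PD0028_125957 was at −6.68, −6.92, and −6.68 in leaves, against 5.75, 5.05, and 5.94 in FG petals. These 3 were among the bright probes of FG petals, and leaves were at least 2120-, 1280-, and 1150-fold lower (adjusted p = 6.28e-10, 3.13e-11, and 2.06e-11). PD0028_064889 was at −6.45, −7.00, and −6.81 in leaves, against 3.89, 3.54, and 3.85 in FG petals. PD0028_043321 was at −4.67, −6.84, and −6.67 in leaves, against 1.41, 0.65, and 1.64 in FG petals. PD0028_041425 was at −6.75, −6.97, and −6.74 in leaves, against −1.07, −1.89, and −0.81 in FG petals. Of these dimmer probes, leaves were at least 328-fold lower for the first and 56.7-fold lower for the second, whose fitted difference was −7.29, or −7.99 without leaf replicate 1. The last, the probe matched to the RT-qPCR gene, lay under the signal cutoff and was also lower (adjusted p = 1.9e-07). The fitted differences of the family ran from −12.49 to −5.56, and from −11.60 to −4.74 in the slide-block fit. White FW petals were like FG petals in level, with 6.73 ± 0.30 for PD0028_132595, whereas dark green FGD petals were at −1.03 ± 0.34.

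**Figure D4:**
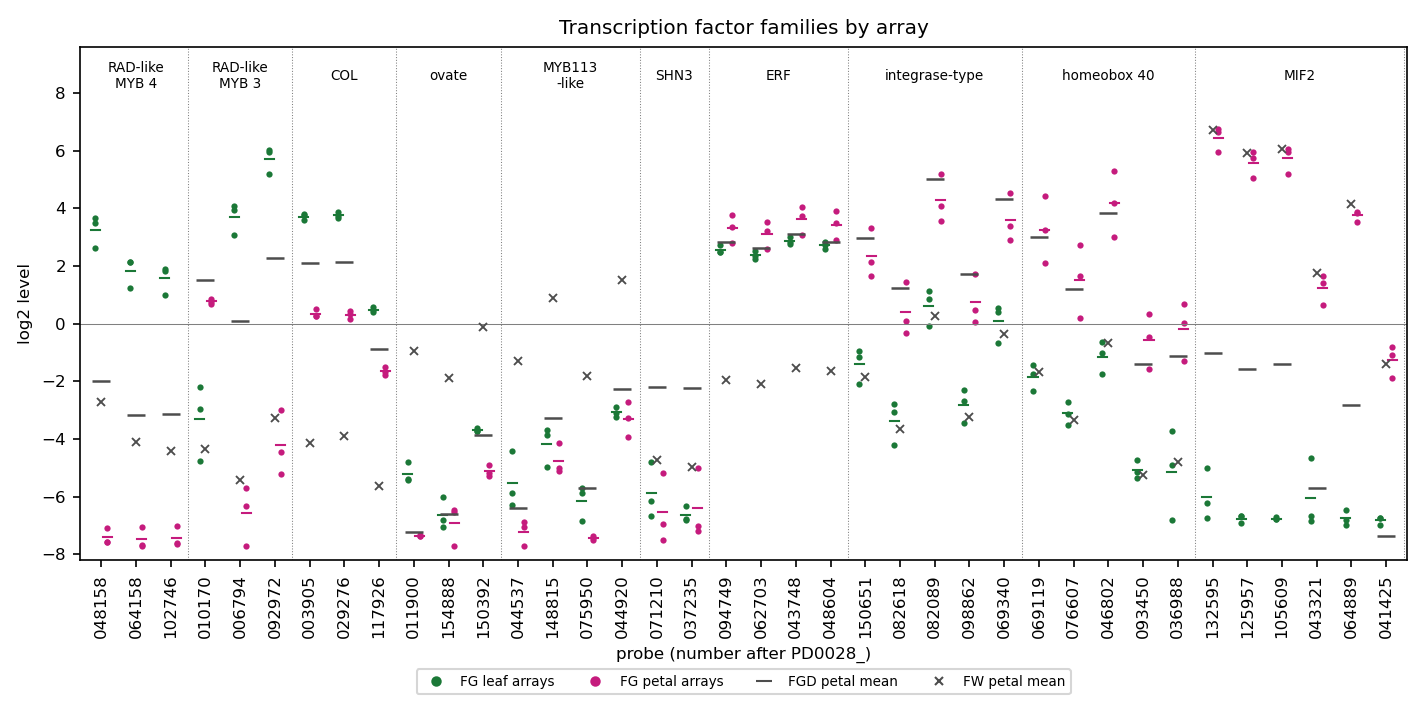
Log2 level of each transcription factor probe that belongs to a family of 2 or more, on the 3 FG leaf arrays (left of each pair) and the 3 FG petal arrays (right of each pair), with a bar at the mean; longer gray bars and crosses are the means of FGD and FW petals. The RADIALIS-like MYB 4 and COL families lie higher in leaves, and the homeobox 40, integrase-type, and *MIF2* families lie lower. Undetected probes are drawn at their own low signal.

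The 5 probes of homeobox protein 40, a homeodomain leucine zipper protein in Arabidopsis, were lower in leaves. PD0028_046802 was at −1.76, −1.01, and −0.65 in leaves, against 4.19, 3.01, and 5.31 in FG petals. PD0028_069119 was at −2.32, −1.73, and −1.45 in leaves, against 3.26, 2.10, and 4.44 in FG petals. PD0028_076607 was at −3.50, −3.12, and −2.71 in leaves, against 1.65, 0.21, and 2.72 in FG petals. They were 39.6-, 34.3-, and 24.9-fold lower (adjusted p = 2.22e-06, 2.67e-06, and 8.78e-06). The FG petal arrays were far apart, with replicate 2 lowest and replicate 3 highest for every probe of this family, yet no petal array fell to a leaf level. PD0028_036988 was at −6.80, −4.91, and −3.74 in leaves, against 0.03, −1.29, and 0.68 in FG petals. PD0028_093450 was at −5.14, −5.35, and −4.72 in leaves, against −0.45, −1.56, and 0.32 in FG petals. The first of this pair, detected on 1 leaf array, was lower in leaves with an adjusted p of 5.32e-05, and the second was at least 16.4-fold lower (adjusted p = 1.83e-06). Single arrays moved 3 of these differences. Without FG petal replicate 3, PD0028_069119 was at −4.51 and PD0028_076607 at −4.04, and without FG petal replicate 2 PD0028_076607 was at −5.30. Without leaf replicate 1, PD0028_036988 was at −4.13, and without leaf replicate 3 at −5.66. Each of these still passed the test. In FW petals this family stood near its leaf level, with −0.68 ± 0.20 for PD0028_046802.

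The 5 integrase-type probes, of AP2/ERF DNA-binding proteins, were all lower in leaves by 11.5- to 13.6-fold. PD0028_082089 was at 0.85, −0.09, and 1.13 in leaves, against 4.07, 3.56, and 5.20 in FG petals. PD0028_069340 was at 0.40, −0.68, and 0.55 in leaves, against 3.38, 2.91, and 4.53 in FG petals. PD0028_150651 was at −1.14, −2.10, and −0.95 in leaves, against 2.13, 1.64, and 3.31 in FG petals. Leaf replicate 2 was the lowest leaf array and petal replicate 3 the highest petal array throughout. PD0028_098862 was at −2.70, −3.45, and −2.29 in leaves, against 0.46, 0.07, and 1.73 in FG petals. PD0028_082618 was at −3.08, −4.21, and −2.79 in leaves, against 0.10, −0.33, and 1.45 in FG petals. The fitted differences were −3.76 to −3.52, and −5.05 to −4.57 in the slide-block fit. The adjusted p values of the family ran from 2.76e-05 to 6.58e-05. Petals of FGD were at or above the FG level and those of FW near the leaf level, at 5.03 ± 0.46 and 0.28 ± 0.64 for PD0028_082089.

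The 4 ERF probes, closest to an Arabidopsis DREB and EAR motif protein, were lower in leaves by a much smaller amount. PD0028_043748 was at 3.00, 2.78, and 2.83 in leaves, against 3.74, 3.07, and 4.05 in FG petals. PD0028_048604 was at 2.85, 2.60, and 2.73 in leaves, against 3.48, 2.90, and 3.90 in FG petals. PD0028_094749 was at 2.73, 2.48, and 2.49 in leaves, against 3.35, 2.80, and 3.78 in FG petals. Leaf arrays lay below every petal array, but FG petal replicate 2 came close to them. PD0028_062703 was at 2.53, 2.26, and 2.35 in leaves, against 3.21, 2.59, and 3.53 in FG petals. Leaves were lower by 1.62- to 1.68-fold (adjusted p = 0.00475 to 0.0114). None of the 4 passed in the slide-block fit, where the differences were −0.55 to −0.18 and the adjusted p values 0.364 to 0.787. The gap of both tissues to FW petals, which averaged −2.08 to −1.55, was wider than that between them.

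The MYB113-like and ovate probes, which the study listed as higher in FW petals, were dim in both tissues of FG. *MYB113* belongs to the anthocyanin regulators of Arabidopsis. PD0028_044920 was at −2.88, −3.10, and −3.23 in leaves, against −3.27, −2.73, and −3.94 in FG petals. PD0028_148815 was at −3.87, −4.98, and −3.70 in leaves, against −5.01, −4.15, and −5.10 in FG petals. These 2 MYB113-like probes overlapped between leaves and petals and did not pass the test (adjusted p = 0.456 and 0.153), although PD0028_148815 did without leaf replicate 2 (adjusted p = 0.01) or FG petal replicate 2 (adjusted p = 0.0408). The other 2 gave no usable fold change, with 1 leaf array above background for PD0028_044537 and none for PD0028_075950. Of the ovate family probes, whose Arabidopsis relatives act as repressors, PD0028_150392 was 2.67-fold higher in leaves (adjusted p = 9.18e-05), a call lost under control spot scaling (adjusted p = 0.053). PD0028_011900 and PD0028_154888 were undetected in both tissues. The SHN3 probes, which the study listed as higher in FGD petals and which are related to a wax regulator of Arabidopsis, were also undetected in leaves, and 1 of them was detected on a single petal array.

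Another 21 listed transcription factors had 1 probe each, and 11 were higher in leaves and 5 lower. Of the 7 in the tested set, 4 were higher and 2 lower, against 33.8% and 43.1% of all tested probes. The counts of all 21 were 8 and 5 under control spot scaling and 7 and 6 in the slide-block fit. Those of the 70270 tested probes were 10752 and 50744 under control spot scaling and 17007 and 21220 in the slide-block fit. The GATA factor *GNC* promotes Chl synthesis in Arabidopsis. PD0028_145445 was at 3.68, 3.99, and 3.37 in leaves, against −1.39, −1.57, and −1.87 in FG petals. This *GNC* probe was 39.1-fold higher in leaves (log2 difference 5.29, SE 0.26, adjusted p = 1.45e-08). It was the widest measured gap among these single probes, and both bud sports were near or below FG petals, at −1.53 ± 0.49 in FGD petals and −5.62 ± 0.30 in FW petals. An AP2/B3-like probe, PD0028_100279, was 16.8-fold higher (log2 difference 4.07, adjusted p = 1.08e-06), with a difference of 5.84 in the slide-block fit. PD0028_142351, listed as a RING/U-box protein, was 6.57-fold higher (adjusted p = 9.57e-06). Its leaf mean of −2.86 ± 0.29 nevertheless lay below FGD petals, at −1.66 ± 0.05, and above FW petals, at −5.15 ± 0.14. PD0028_074156, a bHLH protein, was 2.92-fold higher (log2 difference 1.54, adjusted p = 0.00186). Control spot scaling ended that call (adjusted p = 0.0889), and the difference was 2.23 in the slide-block fit. Bounds applied to several dim ones, such as the auxin response factor 1 probe PD0028_033761, at least 3.04-fold higher. Of these, the bHLH probe PD0028_103797 had a fitted difference of 2.74, or 3.40 without FG petal replicate 2, and the *IAA29* probe PD0028_007777 one of 2.75, or 1.99 without leaf replicate 1 and 3.72 without leaf replicate 3. Neither passed in the slide-block fit (adjusted p = 0.625 and 0.352).

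On the other side, the bZIP probe PD0028_168726 was at −6.69, −6.92, and −6.68 in leaves, against −0.83, 2.01, and 1.69 in FG petals. It was undetected in leaves, and its level there was at least 46.9-fold lower (adjusted p = 7.05e-07). FG petal replicate 1 was far below the other two petal arrays, and without it the fitted difference was −8.61, against −7.72 with it and −8.68 in the slide-block fit. The BEL1-like homeodomain probe PD0028_009958 was at least 8.59-fold lower in leaves (fitted difference −5.08, adjusted p = 1.07e-05), with a fitted difference of −3.01 in the slide-block fit. The *NFYB8* probe PD0028_076231 was at least 15.3-fold lower (adjusted p = 9.12e-05), with fitted differences of −4.63 without FG petal replicate 2 and −3.30 without replicate 3. The *MYB15* probe PD0028_148039 was 4.65-fold lower (log2 difference −2.22, adjusted p = 0.000786), with a difference of −4.02 in the slide-block fit. Only FG petals stood above leaves for this probe. It averaged −3.59 ± 0.35 in leaves, −5.34 ± 0.58 in FGD petals, and −5.35 ± 0.81 in FW petals (SD, n = 3 arrays each). With a signal floor of 100, 14 of the 75 named probes called different no longer passed, among them PD0028_009958 (adjusted p = 0.739), PD0028_142351 and PD0028_033761 (adjusted p = 0.218 each), and the *MIF2* probe PD0028_041425 (adjusted p = 0.178). Some calls rested on single arrays. PD0028_042367, related to redox responsive transcription factor 1, was 3.20-fold higher (adjusted p = 0.0269), but not without leaf replicate 1 (adjusted p = 0.0812) or 3 (adjusted p = 0.11) or petal replicate 1 (adjusted p = 0.0505) or 2 (adjusted p = 0.0895), and without leaf replicate 2 its difference was 2.37. PD0028_086808, a DREB probe, did not pass the test (adjusted p = 0.0651) but did without leaf replicate 2 (adjusted p = 0.003) or petal replicate 1 (adjusted p = 0.0431). PD0028_001574, a storekeeper-related probe that was 2.95-fold higher, lost its call without leaf replicate 2 (adjusted p = 0.0691) or petal replicate 2 (adjusted p = 0.0698).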

How the data were processed

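RNA of 3 FG leaf and 3 FG petal samples, and of 6 petal samples of the bud sports, was hybridized to 12 1-color arrays. The authors deposited the scanner intensity of each spot after background subtraction, with no scaling between arrays, and a table of centered log2 values. Feature Extraction made the intensities, and the labels, file headers, and methods give different versions of it. Here log2 intensities were scaled to each array's 75th percentile, without control spots and with outlier spots set to missing. No spot was saturated. The number of arrays limits the precision. The 4 groups were fitted in limma 3.58.1 (R 4.3.3, with the data.table package, 1.17.8) with 1 mean each, and leaves were contrasted with FG petals. The fit was tested on simulated data. The cutoff of 100 on the mean signal follows the methods, which state it for the clustering of raw signals. The named probes are the study's 31 Chl metabolic and 59 transcription factor probes and the 4 extremes, and gene names are those of its lists. The members and lists were chosen with earlier results of these data known. Alternatives were other scalings, background corrections, filters, a signal floor, variance models, blocks, thresholds, and each array left out. Control spot scaling and cyclic loess were chosen after seeing the data. Plots used Python 3.11.15 and matplotlib 3.10.9.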

Additional observations from a re-analysis of the deposited data

How the results depend on the processing

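The number of arrays, slides of which none holds both tissues of FG, and dim signals limit these results. The 4789 probes over 5-fold higher and 4959 lower in leaves became 12633 and 13107 at a fold over 2, and 1731 and 2199 at a fold over 15 with an adjusted p under 0.01. Without the signal cutoff 11501 were higher, and 66381 at any fold, but that set includes probes undetected in both tissues. When probes were instead kept for a signal above background on all 3 arrays of a tissue, the counts were 9566 and 39846. Normexp background correction left 2653 lower and the signal floor of 100 left 2867 lower. The share of these calls that were higher was 49.1% as reported, 58.3% with normexp, 61.1% without the cutoff, 60.5% with the floor, and 24.6% with control spot scaling. Control spot scaling, chosen after seeing the data, gave 2747 higher and 8432 lower over 5-fold, and 10752 and 50744 at any fold. Leaving out 1 array gave 4722 to 4967 higher and 4835 to 5139 lower.

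Chl biosynthesis probes higher in leaves numbered 7 in the slide-block fit and 5 with control spot scaling, which also had 4 lower. Their median difference of 0.90 was 0.543 and 0.069 in these settings, against −0.12 and −0.94 over all tested probes, which unlike the list hold none under the cutoff. With control spot scaling 1 Chl cycle probe was lower and the median was 1.07, while normexp gave a Chl cycle median of 1.502 and the floor 1.68. For degradation, control spot scaling left 1 probe higher, with a median of −0.67, and leaving out 1 array left 1 to 2 lower. Of the transcription factors, 12 were higher with the floor, and their median of 0.28 was −0.30 with quantile normalization, 0.55 with normexp, 0 with the floor, −0.21 with the slide as a block, −0.55 with control spot scaling, −0.18 with cyclic loess, and −0.078 to 0.506 with 1 array left out. The 1000 brightest probes held 4.57 points more of the signal in leaves, and the 100 brightest 1.66.

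Reversals with control spot scaling were GSA1 (PD0028_006202) at −0.022, *HEMB* (−0.76), *HEME1* (−0.16), HEMF (PD0028_064113) at −0.044, HEMG1 (PD0028_002258) at −0.074, *CHLI* (−0.27), and *PPH* (−0.16); by construction it lowers every difference by 0.83. With the slide as a block, PD0028_117926 (−0.66) and PD0028_190240 (−1.83) reversed, and with normexp PD0028_034984 (0.38) and PD0028_037235 (0.57); the cause was not tested. Of the 75 named probes called different, 14 lost the call without reversing with the floor, 17 in the slide-block fit, and 10 with control spot scaling. Reversed probes are not in these counts. With control spot scaling, *GSA1*, *HEME1*, *HEMF*, *HEMG1*, *CHLI*, and *PPH* reversed and also no longer passed the test. In the same 3 settings 36, 28, and all 75 of the differences moved by over 1.5 times. With normexp 1 call was lost and 37 differences moved. The replicate number pairs nothing in the labels, and deviations of same-numbered leaf and petal arrays correlated at −0.01, 0.17, and 0.18; with it as a replicate block 4789 were higher and 4955 lower over 5-fold, and 2 of 3 leaf arrays correlated best with their own number.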
